A study of Mus musculus with 12 samples.

Results

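This account covers 36 marker genes of the non-hepatocyte cells of the liver: 12 markers of Kupffer cells, 11 of sinusoidal endothelium, and 13 of stellate cells and fibroblasts. They were chosen by name from common cell type knowledge and found by gene symbol among 19938 measured genes, and all 36 were measured. Transcripts were read from whole liver of male C57BL/6J mice, 6 wild-type (WT) and 6 carrying the LRH-1 K289R knock-in, each on its own Affymetrix array. The genotype entry of WT 4 is garbled in the labels, and its group was taken from its title. LRH-1 is a nuclear receptor encoded by Nr5a2, and the K289R change replaces a lysine to which SUMO can be attached. Every mouse went without food for 24 h and was then given food for 6 h. The labels read here state neither age nor how the knock-in was bred. The comparison asks whether refed knock-in and WT livers hold different levels of the markers of these cells.

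Kupffer cells are the resident macrophages of the liver and clear particles, dying cells and complement-coated microbes from sinusoidal blood. Sinusoidal endothelial cells line the same vessels with a thin, fenestrated wall and take up waste molecules through scavenger receptors. Stellate cells lie between that wall and the hepatocytes, store retinyl esters and, when activated, make smooth muscle actin and fibrillar collagen. In RNA from a whole liver piece, fewer cells of a type and less RNA per cell cannot be told apart.

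The probe-set values are linear intensities, and the median of each array lay between 26.8 and 29.2. Hepatocyte markers were bright on every array, with albumin (Alb) at 6644 to 7982. Nr5a2 measured 303 ± 27.1 in WT and 324 ± 18.4 in K289R (mean ± SD, n = 6 per group), which measures the transcript and not the base change. A few arrays stood apart in other tissues' or inflammatory transcripts. On the log2 scale the mean of 10 pancreatic acinar genes was 8.46 on K289R 1 and 9.02 on K289R 3 against 4.20 to 4.51 on the other arrays, and the mean of 14 acute phase genes was 9.50 on WT 1 and 9.69 on WT 3 against 7.82 to 8.67 elsewhere. The mean of 7 skeletal muscle genes was 6.83 on WT 1 and 5.86 on K289R 3, and at most 5.03 on the others.

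Promoter sequences are shown for 5 of the markers: C1qb and C1qc, Clec4f and Vsig4, whose levels are paired below, and Acta2, which with Des had the widest spread. RefSeq (build GRCm38.p6) held promoter entries for 25 of the 36 markers, each of 300 bases, from 250 before to 50 after the gene start. The windows are chr4:136886151-136886450 for C1qb, chr4:136892865-136893164 for C1qc, chr6:83656067-83656366 for Clec4f, chrX:96293389-96293688 for Vsig4 and chr19:34255324-34255623 for Acta2, all on the minus strand and written 5′ to 3′ along the gene. Capitals in the first 4 mark GAGGAA or its reverse complement TTCCTC, letters bound by PU.1, a master transcription factor of macrophages. Capitals in Acta2 mark the CArG box, which binds serum response factor in muscle genes, with 1 middle letter allowed to differ from A or T.
C1qb: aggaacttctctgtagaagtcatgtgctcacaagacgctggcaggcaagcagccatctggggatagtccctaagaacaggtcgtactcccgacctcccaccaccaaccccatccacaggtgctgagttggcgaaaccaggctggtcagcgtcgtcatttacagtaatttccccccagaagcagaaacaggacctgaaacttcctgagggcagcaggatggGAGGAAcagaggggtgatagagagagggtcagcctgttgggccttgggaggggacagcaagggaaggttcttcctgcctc
C1qc: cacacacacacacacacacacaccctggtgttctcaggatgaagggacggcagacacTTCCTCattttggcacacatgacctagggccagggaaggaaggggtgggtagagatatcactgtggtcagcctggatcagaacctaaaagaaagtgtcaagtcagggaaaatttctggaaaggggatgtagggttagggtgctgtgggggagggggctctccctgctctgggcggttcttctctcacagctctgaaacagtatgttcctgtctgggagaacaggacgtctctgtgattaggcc
Clec4f: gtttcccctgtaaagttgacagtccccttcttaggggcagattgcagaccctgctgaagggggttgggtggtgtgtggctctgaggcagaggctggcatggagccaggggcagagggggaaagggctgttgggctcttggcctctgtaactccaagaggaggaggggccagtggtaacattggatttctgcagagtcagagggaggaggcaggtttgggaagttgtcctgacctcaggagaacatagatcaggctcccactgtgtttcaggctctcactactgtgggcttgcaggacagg
Vsig4: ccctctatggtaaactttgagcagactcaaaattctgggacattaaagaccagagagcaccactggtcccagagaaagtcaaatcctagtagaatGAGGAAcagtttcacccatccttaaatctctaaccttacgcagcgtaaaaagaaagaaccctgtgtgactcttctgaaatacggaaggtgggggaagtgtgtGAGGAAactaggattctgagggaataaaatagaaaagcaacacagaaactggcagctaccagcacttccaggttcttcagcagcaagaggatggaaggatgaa
Acta2: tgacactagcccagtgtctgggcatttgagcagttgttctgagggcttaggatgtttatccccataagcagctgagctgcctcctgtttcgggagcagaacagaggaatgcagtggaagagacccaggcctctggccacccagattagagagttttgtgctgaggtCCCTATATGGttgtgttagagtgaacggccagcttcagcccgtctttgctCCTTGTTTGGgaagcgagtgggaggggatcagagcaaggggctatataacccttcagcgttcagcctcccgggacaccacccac
The GAGGAA letters were present in C1qb, in C1qc and at 2 places in Vsig4, and not in the Clec4f window. Of all 32851 promoter entries 28.3% held them on either strand, and so did 12 of the 27 entries of the markers: 6 of 10 for Kupffer cells, 4 of 10 for stellate cells and fibroblasts, and 2 of 7 for endothelium. The Acta2 window holds GAGGAA too, left in lower case. The Acta2 window held 2 CArG matches with 1 middle letter free, which start 84 and 34 bases before the gene start. At least 1 such match was held by 9.98% of all entries and by 7 of the 27 entries of the markers. Of these groups, 2 of 10 entries for Kupffer cells, 3 of 10 for stellate cells and fibroblasts, and 2 of 7 for endothelium held one. With no letter allowed to differ, 1.63% of all entries and none of the 27 entries of the markers held a CArG box. A match here is a description of letters and not of a bound site.

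None of the 36 markers was called as different between K289R and WT livers. The genotypes were compared with limma, a linear model fitted to the log2 values of all genes, and a gene counted as changed at a Benjamini-Hochberg adjusted p under 0.05. Over all genes 0.572% were called (114 genes, 96 higher and 18 lower), and 0 of the 36 markers were, the smallest adjusted p of a marker being 0.277. At an unadjusted p under 0.05 limma gave 3 markers, all higher in K289R, which is 8.33% of the markers against 6.42% of all genes called higher by that rule and 5.61% called lower. For no marker were the arrays of the groups free of overlap, against 1.24% of all genes.

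The 95% intervals show which differences these arrays could have missed. For 31 of the 36 markers (86.1%) the interval of the genotype difference lay within 1.5-fold in either direction, against 97.1% of all genes. The 5 with wider intervals were Vsig4, Lyve1, Rgs5, Acta2 and Des, which are described below. A positive difference, higher in K289R, was measured for 26 markers, or 72.2%, against 46.0% of all genes. That split depended on the scaling: 30 markers were positive with equal array medians and 22 with quantile normalization. Equal array medians shift the difference of every gene by the same amount, so the share over all genes moves too. That share was not computed under either scaling, so 46.0% is no reference for these counts.

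**Figure D1:**
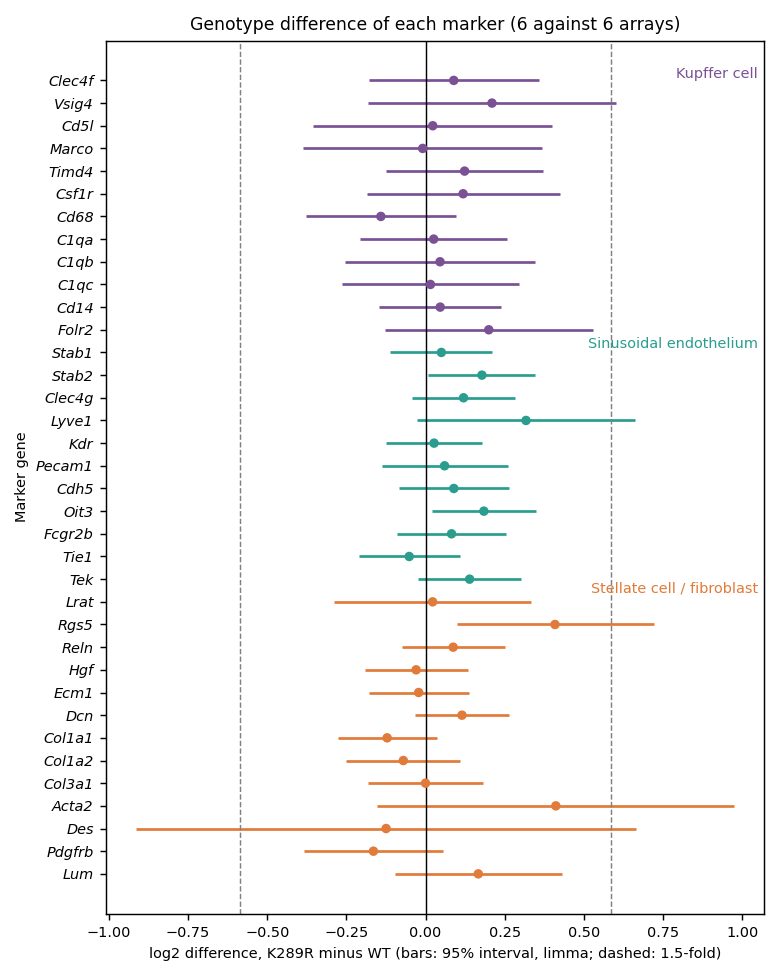
Log2 difference (K289R minus WT, horizontal axis) of each of the 36 markers with its 95% limma interval, coloured by cell type, with dashed lines at 1.5-fold. The intervals of 31 markers lie between the dashed lines, and Des and Acta2 have the widest.

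Among Kupffer cell markers the genotypes overlapped throughout, and limma called 0 of 12 in either direction, with 0 at an unadjusted p under 0.05. The median log2 difference was 0.05, against -0.01 over all genes, with single genes between -0.14 for Cd68 and 0.21 for Vsig4. Instead, the markers moved together from mouse to mouse. Array K289R 4 had the highest value of all 12 arrays for 12 of 12 Kupffer cell markers, and array WT 3 had the lowest value for 7 of them. Averaged over the 12 genes, K289R 4 lay 0.57 above the genes' 12-array means on the log2 scale, and WT 3 lay 0.31 below (-0.31), with the other arrays from -0.23 to 0.21.

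**Figure D2:**
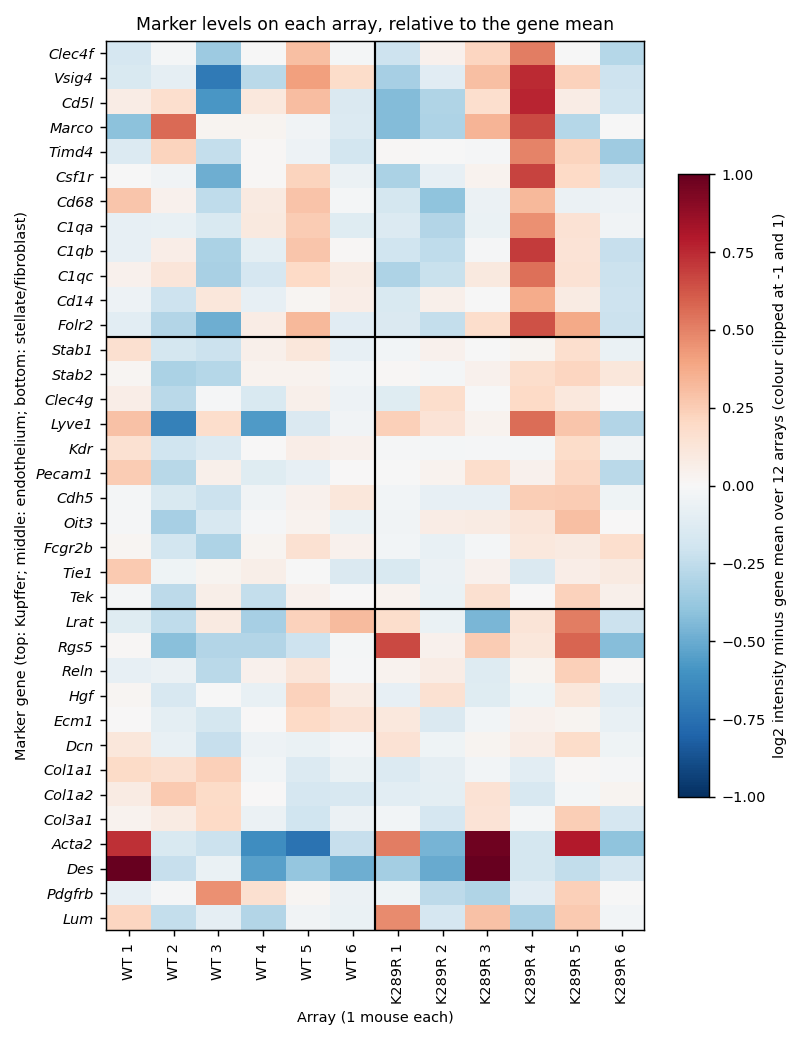
Log2 intensity of each marker (rows, grouped by cell type) on each array (columns), minus that gene's mean over the 12 arrays, with red above and blue below. Array K289R 4 is red for all 12 Kupffer cell markers. Des is dark red on WT 1 and K289R 3, and Acta2 is red on those and on K289R 1 and 5. Colours are clipped at 1 and -1.

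Clec4f, a galactose-binding lectin made only by Kupffer cells in mouse liver, ranged from 136 to 216 on WT arrays (median 173) and from 144 to 249 on K289R arrays (median 177). Vsig4, the receptor with which these cells capture particles coated with complement C3, ranged from 156 to 338 on WT arrays (median 235) and from 203 to 428 on K289R arrays (median 267). Both genes were lowest on WT 3 and highest on K289R 4, and the other K289R arrays lay within the WT range. For Clec4f the K289R level was 1.06-fold the WT level (95% interval 0.883 to 1.28, limma adjusted p = 0.808). The corresponding value of Vsig4 was 1.16-fold (0.882 to 1.52, adjusted p = 0.668), and its log2 difference of 0.21 was 0.081 without K289R 4 and 0.089 without WT 3.

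Cd5l, a secreted scavenger-receptor family protein of tissue macrophages, spread from 90.3 to 167 on WT arrays (median 144) and from 100.2 to 229 on K289R arrays (median 129.8). Its K289R median was the lower one, whereas its K289R mean, 142 ± 47.1 (SD, n = 6) with K289R 4 at 229, was above the WT mean of 136 ± 26.9. Timd4, a phosphatidylserine receptor of long-lived resident macrophages, measured 37.4 to 51.3 in WT and 34.4 to 62.2 in K289R. Folr2, the beta folate receptor, measured 55.7 to 97.7 in WT and 66.1 to 121 in K289R, a difference of 1.15-fold (0.915 to 1.44, adjusted p = 0.619). Without K289R 4 the log2 difference of Folr2 was 0.092 in place of 0.20, and without WT 3 it was 0.12. Again the upper end of each K289R range came from K289R 4. The scavenger receptor Marco was dim, at 17.2 to 33.8 in WT and 16.9 to 36.1 in K289R, and lay below the array median on 9 of the 12 arrays.

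Receptors and a lysosomal protein that Kupffer cells share with other macrophages also overlapped between the genotypes. Csf1r, the receptor for the macrophage growth factors CSF1 and IL-34, ranged from 93.9 to 153 on WT arrays (median 129.8) and from 105.5 to 211 on K289R arrays (median 129.5). Cd68, a glycoprotein of macrophage lysosomes, ranged from 72.8 to 105 on WT arrays and from 65.5 to 108 on K289R arrays. Its log2 difference of -0.14 (adjusted p = 0.625) and that of Marco, at -0.01, were the negative ones among the 12. Cd14, which hands lipopolysaccharide to Toll-like receptor 4 and is also made by hepatocytes in the acute phase, was below the median on every array, at 15.7 to 19.7 in WT and 15.7 to 23.5 in K289R.

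The 3 chains of complement C1q, which bind immune complexes and dying cells, are encoded side by side on chromosome 4. C1qb ranged from 201 to 303 on WT arrays (median 244) and from 210 to 406 on K289R arrays (median 233). C1qc ranged from 104 to 149 and from 105 to 190, and C1qa from 99.4 to 132 and from 90.3 to 152. K289R 4 was highest for each chain. The other K289R arrays lay within the WT range for C1qb and C1qc, and for C1qa K289R 2 lay below it at 90.3. Their log2 differences were 0.03 for C1qa, 0.05 for C1qb and 0.02 for C1qc, with adjusted p of 0.945, 0.922 and 0.972.

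**Figure D3:**
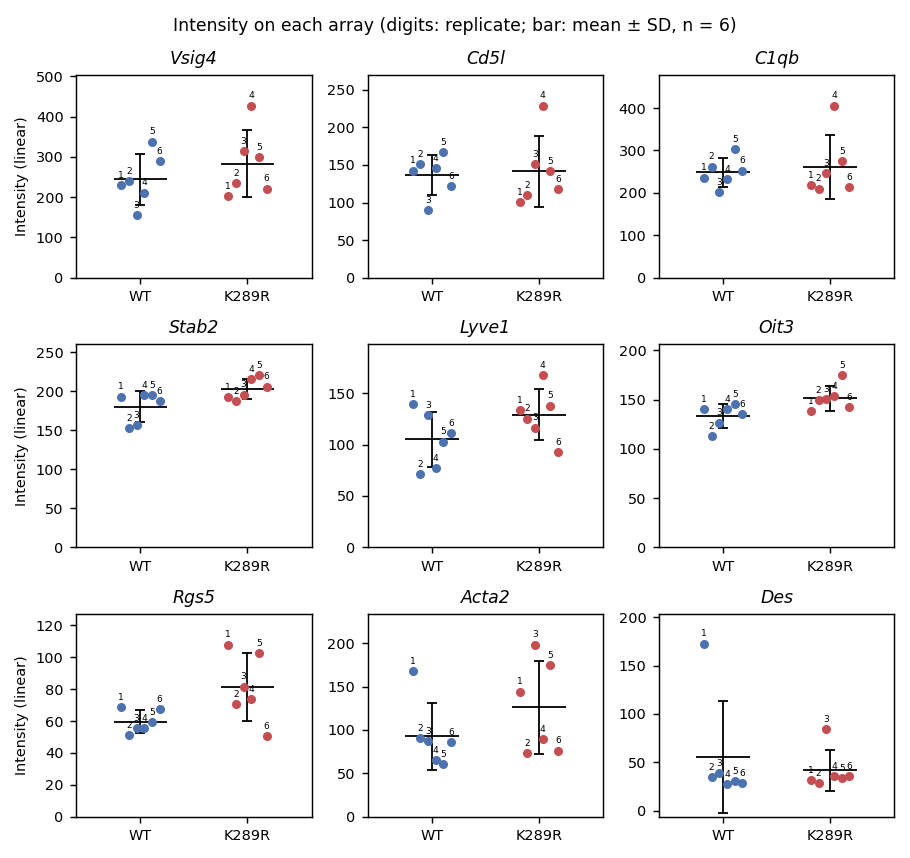
Linear intensity on each array (points, digits give the replicate) with mean ± SD (bars, n = 6) for 9 markers, WT in blue and K289R in red. Replicate 4 tops the K289R points of Vsig4, Cd5l and C1qb, and Des has a single high WT point of 172.5 on replicate 1.

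The direction of the Kupffer cell list changed when K289R 4 was left out. That array was singled out for its high values, so leaving it out lowers every difference and the values that follow are a description. Without it 3 of 12 markers were positive and the median log2 difference was -0.04, against 10 of 12 and 0.05 with all arrays. Without WT 1 and 3 the median was -0.02 and 5 were positive, and 6 were positive without WT 3 alone (median 0.01). The SD of log2 values was larger in K289R than in WT for 12 of 12 Kupffer cell markers, against 50.2% of all genes, and for 4 of 12 when K289R 4 was left out. The median SD was 0.21 in WT, 0.34 in K289R and 0.20 in K289R without that array. With both genotypes pooled, the median Kupffer cell marker was more variable than 95.5% of all genes.

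A second list of 26 measured Kupffer cell identity and clearance genes that shares no gene with the 12 markers had the same array on top. On K289R 4 their mean lay 0.27 above the 12-array mean, 23 of 26 were above it, and 13 of 26 had their highest value there. On WT 5 the mean deviation was 0.20, 23 of 26 were above as well, and 2 of 26 were highest. For markers of other blood cells the mean deviation on K289R 4 was 0.18 for NK cells and 0.15 for dendritic cells, whose lists were also highest there. It was 0.10 for monocytes and recruited macrophages, 0.08 for neutrophils, 0.01 for T cells and -0.12 for B and plasma cells. Many of these genes lay below the array median on all arrays (6 of 7 for NK cells, 5 of 8 for dendritic cells, 5 of 8 for monocytes, 8 of 9 for neutrophils, 5 of 7 for T cells and 4 of 6 for B and plasma cells), so the sizes are not compared with those of the Kupffer cell markers. The mean deviation of acute phase genes was 0.34 on K289R 4, but 1.17 on WT 1 and 1.36 on WT 3, where the Kupffer cell markers averaged -0.07 and -0.31. The part of any of these in the Kupffer cell values was not tested. Of the 26 genes Id3 fell in K289R and none rose. At an unadjusted p under 0.05 there were 3, of which 0 were higher, where 6.42% of all genes were higher and 5.61% lower. Id3, an inhibitor of helix-loop-helix factors that Kupffer cells and many other cells use, measured 149 ± 29.6 in WT and 75.5 ± 6.13 in K289R (mean ± SD, n = 6 per group, limma adjusted p = 0.000711).

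**Figure D4:**
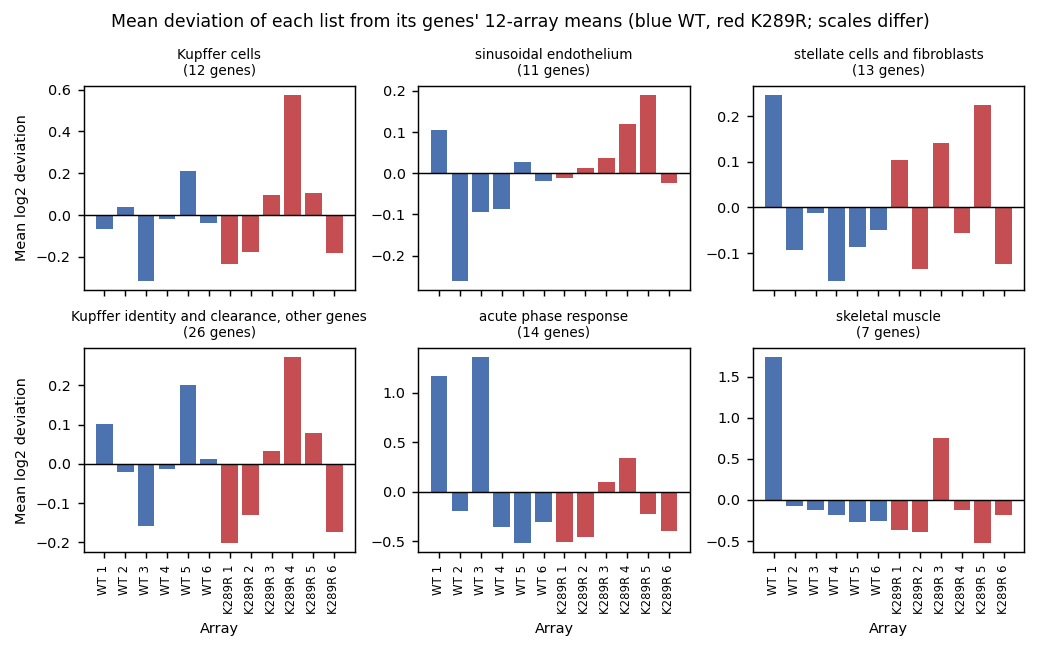
Mean log2 deviation of 6 gene lists from their genes' 12-array means (vertical axis, scales differ) on each array, WT in blue and K289R in red. The Kupffer cell list and the separate list of 26 Kupffer genes both peak on K289R 4, whereas acute phase genes peak on WT 1 and WT 3 and muscle genes on WT 1 and K289R 3.

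Partners of these receptors were called in neither direction. The counts at an unadjusted p given for this and the following lists take both directions together. They stand against 2399 of all 19938 genes, of which 6.42% of all genes were higher and 5.61% lower. Of 10 measured partners of Csf1r and C1q limma called 0, and 2 had an unadjusted p under 0.05: the ligand Csf1, at 53.2 ± 6.31 in WT and 46.4 ± 4.61 in K289R (adjusted p = 0.394), and complement C2, at 204 ± 14.6 and 172 ± 15.4 (mean ± SD, n = 6 per group, limma adjusted p = 0.176). Of 11 genes of the Cd14 and Toll-like receptor 4 pathway limma called 0, with 1 at an unadjusted p under 0.05. The adaptor Ticam1 had the smallest p there, at 97.9 ± 9.38 in WT and 83.9 ± 6.32 in K289R (adjusted p = 0.252). It was followed by the NF-kappaB inhibitor Nfkbia, at 146 ± 46.7 and 163 ± 19.5 (adjusted p = 0.589).

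Sinusoidal endothelial markers had the smallest median spread of the 3 groups. Limma called 0 of 11, with 2 at an unadjusted p under 0.05. Of the 11, 10 had a positive difference, with a median log2 difference of 0.09 against -0.01 over all genes. Single genes lay between -0.05 (Tie1) and 0.32 (Lyve1), and the median half-width of the 95% interval was 1.12-fold. The median marker of this group was more variable than 32.9% of all genes. Array WT 2 had the lowest value for 7 of the 11 and lay below the 12-array mean for all 11, with a mean deviation of -0.26, whereas K289R 5 was highest for 6 (mean deviation 0.19). Leaving out WT 2 gave 9 positive markers and a median of 0.07.

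Of the scavenger receptors, Stab2, which removes hyaluronan from blood, ranged from 153 to 195 on WT arrays (median 190) and from 187.5 to 221 on K289R arrays (median 201). WT 2, WT 3 and WT 6 lay below all K289R arrays, and the other WT arrays overlapped with them. The difference was 1.13-fold (95% interval 1.01 to 1.27, limma adjusted p = 0.396). Stab1, its paralog, which takes up modified lipoproteins and other waste, ranged from 106 to 137 on WT arrays and from 118 to 138 on K289R arrays, a 1.04-fold difference (0.926 to 1.16, adjusted p = 0.823). Fcgr2b, the inhibitory IgG receptor with which these cells clear immune complexes, measured 228 to 315 in WT and 269 to 319 in K289R.

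Lyve1, a hyaluronan receptor of sinusoidal and lymphatic endothelium, varied most in this group. It ranged from 71.3 to 139 on WT arrays (median 107) and from 92.6 to 168 on K289R arrays (median 130). WT 2 and WT 4 were the low arrays, and the groups overlapped. The difference was 1.25-fold (0.981 to 1.58, adjusted p = 0.460). The log2 difference of 0.32 was 0.21 without WT 2, 0.24 without either WT 4 or K289R 4, and 0.51 without WT 1 and 3, and it was called in none of these.

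Oit3, a secreted protein with a zona pellucida domain found in sinusoidal endothelium, measured 113 to 145 in WT (median 138) and 138 to 175 in K289R (median 150). Its 1.14-fold difference (1.01 to 1.27) had a limma adjusted p of 0.360. Clec4g, the lectin LSECtin, ranged from 467 to 589 on WT arrays (median 549) and from 516 to 645 on K289R arrays (median 583.5), a 1.09-fold difference (0.971 to 1.22, adjusted p = 0.542). It was the 1 marker with a second probe set, and this was dim, at 13.4 ± 2.23 in WT and 15.6 ± 2.63 in K289R (mean ± SD, n = 6 per group).

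Junction proteins and growth factor receptors shared by all blood vessels overlapped between the genotypes. Pecam1, an adhesion molecule of endothelial contacts, measured 43.5 to 62.6 in WT and 43.7 to 60.7 in K289R. Cdh5, the cadherin of endothelial junctions, measured 181 to 227 and 199 to 250. For the vascular endothelial growth factor receptor Kdr the ranges were 119 to 152 in WT and 133 to 155 in K289R, and the interval of its difference, 0.917- to 1.13-fold, was the narrowest of these 3. Tek, the receptor of angiopoietins, ranged from 63.1 to 78.6 on WT arrays and from 72.1 to 88.4 on K289R arrays (1.10-fold, 0.984 to 1.23, adjusted p = 0.488). Tie1, a receptor related to Tek, ranged from 65.6 to 87.0 and from 65.3 to 77.4.

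Of 30 further endothelial genes limma called 0, with 3 at an unadjusted p under 0.05, a share not above that of all genes. The 2 with the smallest p were the neuropilins, coreceptors of vascular growth factors and semaphorins, and they pointed in opposite directions. Nrp2 measured 47.0 ± 4.21 in WT and 62.7 ± 9.06 in K289R (adjusted p = 0.0572), and Nrp1 253 ± 30.6 in WT and 199 ± 24.1 in K289R (mean ± SD, n = 6 per group, limma adjusted p = 0.137). Of 17 genes for signalling ligands of endothelium and its neighbours, with 1 receptor among them, limma called 0, with 1 at an unadjusted p under 0.05. Rspo3, which strengthens Wnt signalling around central veins, had arrays that did not overlap, at 46.8 ± 2.40 in WT and 54.4 ± 3.35 in K289R (adjusted p = 0.174). The Notch ligand Dll1 came next at 31.8 ± 2.22 and 29.4 ± 2.79 (adjusted p = 0.549).

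Stellate cell and fibroblast markers showed no common shift. Limma called 0 of the 13, with 1 at an unadjusted p under 0.05. Of the differences 6 were positive and 7 negative, and the median log2 difference was -0.00039. Lrat, which esterifies retinol for storage, ranged from 104 to 164 on WT arrays (median 131) and from 96.1 to 187 on K289R arrays (median 135), with a 1.02-fold difference (0.819 to 1.26, adjusted p = 0.965). Reln, the secreted glycoprotein reelin that marks quiescent stellate cells, measured 136 to 178 and 149 to 193. Hgf, the growth factor with which stellate cells act on hepatocytes, measured 59.9 to 78.5 in WT and 61.5 to 74.2 in K289R, a 0.979-fold difference (0.875 to 1.10, adjusted p = 0.900). The matrix glycoprotein Ecm1 measured 396 to 515 and 405 to 483. The groups overlapped for all 4 of these genes.

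Rgs5, a regulator of G protein signalling in pericytes and other contractile cells, had the smallest p of the 36 markers. On the WT arrays it lay between 51.3 and 68.8 (median 57.5), and on the K289R arrays it measured 108, 70.6, 81.6, 74.0, 102 and 50.8. Of the K289R arrays 5 lay above all WT arrays, and K289R 6 lay below them all. The difference was 1.33-fold (95% interval 1.07 to 1.65, limma adjusted p = 0.277). Without K289R 6 it passed, with a log2 difference of 0.54 in place of 0.41 and a limma adjusted p = 0.0467, the single case in which a marker was called. Since K289R 6 held the lowest Rgs5 value, leaving it out raises the difference and narrows the K289R spread, so that call is a description. Without K289R 1 and 3 the log2 difference was 0.28 (limma adjusted p = 0.601).

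The contractile and cytoskeletal markers Acta2 and Des had the widest spread. Desmin (Des), the intermediate filament of muscle and of mouse stellate cells, measured 173 on WT 1 and 84.8 on K289R 3, whereas the other 10 arrays lay between 27.9 and 38.9. The same 2 arrays had the most skeletal muscle transcript, with skeletal actin Acta1 at 672 and 288.9 against 45.1 to 69.0 on the others. The part of muscle transcript in the Des values was not tested. The log2 difference of Des was -0.12 with all arrays (0.531- to 1.58-fold, adjusted p = 0.917) and 0.06 without those arrays, which left it without a settled direction. Smooth muscle actin (Acta2) ranged from 60.3 to 168 on WT arrays (median 86.4) and from 73.1 to 198 on K289R arrays (median 117). Its 3 highest arrays after K289R 3 were K289R 5 at 175, WT 1 at 168 and K289R 1 at 144, so that it was also high on 2 arrays where Des was not. The difference was 1.33-fold (0.899 to 1.97, adjusted p = 0.546), and the log2 difference of 0.41 became 0.14 when K289R 1 and 3 were left out and 0.64 when WT 1 and 3 were (limma adjusted p = 0.905 and 0.412). The mean log2 deviation of 6 smooth muscle genes was 0.18 on K289R 3, 0.14 on K289R 1 and 0.12 on WT 1. It was 0.05 on K289R 5 and at most 0.09 on the others. The part of smooth muscle transcript in the Acta2 values was not tested.

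Fibrillar collagens, the scar-forming product of activated stellate cells, overlapped between the genotypes. Col1a1 ranged from 59.3 to 77.1 on WT arrays (median 68.5) and from 59.5 to 65.9 on K289R arrays (median 62.5). All K289R arrays lay within the WT range, and the difference was 0.919-fold (0.825 to 1.02, adjusted p = 0.526). Col1a2, the second chain of type I collagen, measured 60.9 to 82.1 and 61.2 to 75.8, a 0.952-fold difference (0.841 to 1.08). Col3a1, which forms type III collagen, measured 43.2 to 56.9 and 44.1 to 58.7, with a log2 difference of -0.00039 (0.882- to 1.13-fold, adjusted p = 0.999). For these collagens, changes of 1.5-fold in either direction lay outside the 95% intervals.

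The proteoglycans that coat collagen fibrils and the PDGF receptor completed the group. Decorin (Dcn) ranged from 1065 to 1356 on WT arrays and from 1217 to 1423 on K289R arrays (log2 difference 0.11, interval -0.03 to 0.26, adjusted p = 0.524). Lumican (Lum) was dim, at 19.7 to 28.1 in WT and 19.4 to 33.6 in K289R, below the array median on 8 arrays. Pdgfrb, the receptor through which platelet-derived growth factor drives stellate cells to divide, measured 62.7 to 91.2 in WT, its top value falling on WT 3, and 53.7 to 78.1 in K289R (0.892-fold, 0.766 to 1.04, adjusted p = 0.537). Without WT 3 the log2 difference of Pdgfrb was -0.089 in place of -0.16.

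Among 22 further stellate cell genes Nt5e rose and 21 were not called. At an unadjusted p under 0.05 there were 3, of which 2 were higher. Nt5e, the ecto-5′-nucleotidase CD73, which stellate cells share with hepatocytes and other cells, measured 44.6 ± 10.4 in WT and 75.8 ± 11.97 in K289R without overlap (mean ± SD, n = 6 per group, 1.72-fold, limma adjusted p = 0.0133). Of 35 genes of the extracellular matrix and its remodelling limma called 0, with 2 at an unadjusted p under 0.05 and the smallest p for fibulin 5 (Fbln5, 1.15-fold, adjusted p = 0.362) and periostin (Postn, 1.27-fold, adjusted p = 0.375). Of 12 partners of Hgf and PDGF signalling limma called 0, with 3 at an unadjusted p under 0.05. Pdgfra measured 35.8 ± 3.57 in WT and 42.3 ± 1.77 in K289R (limma adjusted p = 0.151), and the protease inhibitor Spint2 was 0.854-fold (adjusted p = 0.231). In the TGF-beta and stellate activation list limma called 0 of 12, with 1 at an unadjusted p under 0.05. The receptor Tgfbr2 was 1.10-fold (adjusted p = 0.400) and the signal transducer Smad3 0.901-fold (adjusted p = 0.512).

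Other cells that a liver piece can hold gave 1 call. Resistin (Retn), listed with the adipocyte markers, rose from 33.4 ± 3.59 to 46.5 ± 6.76 (mean ± SD, n = 6 per group, limma adjusted p = 0.0364), and the other 4 measured adipocyte markers were not called. The mean of the adipocyte list was highest on K289R 1 and K289R 3, at 0.40 and 0.29 above the 12-array mean, the arrays with pancreatic transcript. Without them Retn was not called (log2 difference 0.34 in place of 0.47, limma adjusted p = 0.202). Nor was it called when WT 3, 4, 5 or 6 or K289R 1, 2, 3 or 4 was left out alone, with adjusted p between 0.0241 and 0.0966 over all 12 such fits. The lists of cholangiocytes, monocytes, dendritic cells, T cells, B cells, NK cells, neutrophils, red cell precursors, mesothelium, smooth muscle, skeletal muscle, acinar cells and islets had 0 genes called by limma each, and at most 2 each at an unadjusted p under 0.05.

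How closely markers of 1 cell type followed each other was measured for 7 pairs, as deviations from the genotype means over 12 arrays, with p from 100000 permutations within genotype and Benjamini-Hochberg adjustment over the pairs. C1qb and C1qc were the most closely tied, with Pearson's r = 0.95 (permutation p = 3e-05, adjusted p = 0.00021) and Spearman's rho = 0.95 (p = 8e-05, adjusted p = 0.00056). Without the arrays farthest from the median, K289R 4 and WT 5, their r was 0.93. Within genotypes it was 0.92 in WT and 0.97 in K289R. Clec4f and Vsig4, which lie on different chromosomes, had r = 0.91 (permutation p = 0.00023, adjusted p = 0.000805) and rho = 0.83 (p = 0.00262, adjusted p = 0.00917), and r = 0.88 without K289R 4 and K289R 6. Within genotypes the r of this pair was 0.90 in WT and 0.93 in K289R.

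C1qa had a lower r with its partner chains than they had with each other, a difference that was not tested. With C1qb it had r = 0.88 (permutation p = 0.0017, adjusted p = 0.00397) and rho = 0.74 (p = 0.0141, adjusted p = 0.0164), and with C1qc r = 0.77 (permutation p = 0.0122, adjusted p = 0.0122) and rho = 0.79 (p = 0.00938, adjusted p = 0.0164). Without K289R 4 and WT 5 these r were 0.60 (permutation p = 0.0906) and 0.43 (permutation p = 0.261). Those arrays were picked as the farthest from the C1qa median. Leaving them out narrows the range and leaves 10 arrays, so the lower r alone does not show whether the relations rested on them. Within genotypes r with C1qb was 0.69 in WT and 0.95 in K289R, and with C1qc 0.40 in WT and 0.90 in K289R. These differences were not tested. The endothelial pair Stab1 and Stab2 had r = 0.80 (permutation p = 0.00786, adjusted p = 0.00917) and rho = 0.77 (p = 0.0136, adjusted p = 0.0164), with r = 0.73 without WT 1 and WT 3. Within genotypes the r of this pair was 0.89 in WT and 0.51 in K289R, again without a test of the difference.

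Among the collagens, Col1a1 and Col1a2, the chains of type I collagen, had r = 0.84 (permutation p = 0.00403, adjusted p = 0.00705) and rho = 0.82 (p = 0.00524, adjusted p = 0.0122), and r = 0.77 without WT 5 and WT 3. Their r was 0.89 within WT and 0.70 within K289R. Col1a1 and Col3a1 had r = 0.68 (permutation p = 0.00665, adjusted p = 0.00917) and rho = 0.69 (p = 0.0167, adjusted p = 0.0167). Without WT 5 and WT 3, the arrays farthest from the Col1a1 median, r was 0.46 (permutation p = 0.0741), with the same limit as for C1qa. The r of Col1a1 and Col3a1 was 0.94 within WT and 0.46 within K289R, a difference that was not tested.

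**Figure D5:**
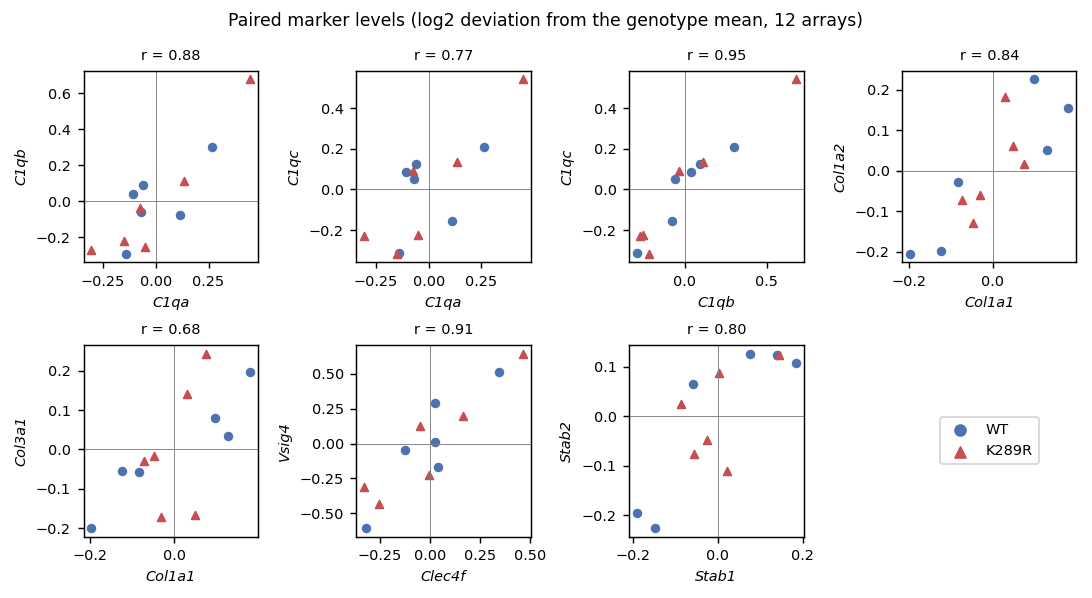
Log2 deviations of 7 pairs of markers from their genotype means, 1 point per array, WT as blue circles and K289R as red triangles, with Pearson's r above each panel. The point of K289R 4 is at the upper right of the C1q and Clec4f panels, and C1qb with C1qc lie closest to a line (r = 0.95).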

How the data were processed

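Liver RNA of 12 mice was hybridised to 1 Affymetrix array each, after amplification with the Ambion WT kit and biotin labelling, per the labels' protocols. What the authors deposited is 1 linear intensity per probe set and array, computed with Affymetrix Expression Console, per the submitters' processing notes. Version, summarization, background correction and normalization were not given in the sources used here. Array medians of 26.8 to 29.2 and upper quartiles of 78.6 to 85.0 show that the deposited values share a common scale, but not an equal distribution.

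Of 35556 rows 21789 had 1 gene symbol, and the probe set with the highest mean stood for each of 19938 genes. Symbols were updated through the gene IDs of RefSeq (GRCm38.p6). Log2 was taken without a pseudocount, and K289R was compared with WT by limma 3.58.1 (R 4.3.3, lmFit and eBayes, no covariates, two-sided). Every adjusted p of a gene comes from that fit over all genes. Folds are differences of log2 means raised back to the linear scale, whereas means ± SD are of linear values. A median or range is of linear intensities unless log2 is named. Pair correlations used numpy 2.4.6 and two-sided tests, and figures matplotlib 3.10.9. Precision is limited by the number of arrays. No detection call was used. Labels name separate mice but no scan date, so batches were not analysed here.

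The members and gene lists were chosen with earlier results of these data known. Every marker is named. From each companion list the called genes are named, or otherwise the pair with the smallest p, and from the lists of other cell types the called genes. Alb and Acta1 were named after their values were seen, as was the CArG search with 1 letter free. The settings tried were other normalizations, filters, probe set rules and variance models, a pseudocount of 16, the replicate number as a block, and arrays left out. The script was tested on simulated data.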

Additional observations from a re-analysis of the deposited data

Results flagged for a closer look

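Within each genotype the highest or lowest of 6 arrays stood far from the rest in 4 of 78 groups looked at, where chance gives about 5%. Kdr measured 155 on K289R 5, and the next K289R array was at 135.5. Des measured 172.5 on WT 1, with the next WT array at 38.9, and 84.8 on K289R 3, with the next K289R array at 36.2. The mean of the stellate cell and fibroblast markers lay 0.25 above the 12-array mean on WT 1 (log2), with the next WT array at -0.01. On WT 1 10 of these 13 markers lay above their means. Des and Acta2 (168) are among them and had their highest WT value there, so this flag is not separate from that of Des. Neither a Kupffer cell marker nor the mean of the Kupffer cell markers was flagged. For these genes, then, array K289R 4 did not stand apart by this rule.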

How the results depend on the processing

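Of 897 marker values under 25 alternatives 820 kept their sign and stayed uncalled, 76 changed sign without being called, and 1 was called (Rgs5 without K289R 6). For 21 markers no alternative changed the sign. The cause of the changes was not tested. Replicate numbers did not pair the arrays (correlations of same-numbered deviations -0.23 to 0.23, 2 of 6 over 0.1, and 1 of 6 WT arrays closest to its own number), and a replicate block gave 111 called genes in place of 114 and 0 called markers. Called genes numbered 75 without K289R 1 and 3, 65 without WT 1 and 3 and K289R 1 and 3, and 81 to 159 when 1 array was left out, with 0 to 1 called markers. The fit over all 35556 rows called 76, a count of rows and not of genes, and 0 markers. The array sets without WT 1 and K289R 3, and without K289R 4 for the pairs, were chosen after seeing the data. So was the repeat of every setting for Id3, Nt5e and Retn: Id3 stayed called throughout, Nt5e was lost over all rows (limma adjusted p = 0.0685), and Retn was lost over all rows (0.115), with log2(value + 16) (0.0572), without WT 1 and 3 (0.103), without all 4 arrays (0.286) and without WT 1 and K289R 3 (0.0801). Log2 differences with a changed sign were as follows. With equal array medians Marco was 0.028, Hgf 0.0074, Ecm1 0.015 and Col3a1 0.037. With quantile normalization Cd5l was -0.015, Marco 0.027, C1qa -0.0072, C1qc -0.024, Kdr -0.014 and Lrat -0.020. With array weights Cd5l was -0.021, C1qa -0.026, C1qc -0.0059, Lrat -0.011, Col3a1 0.0062 and Des 0.032. With log2(value + 16) Marco was 3.2e-05 and Col3a1 0.00017. Without K289R 1 and 3 Marco was 0.012 and Hgf 0.013. Without WT 1 and 3 Clec4f was -0.022, Cd5l -0.098, C1qa -0.027, C1qb -0.042, C1qc -0.051, Tie1 0.0070, Col3a1 0.057 and Des 0.35. Without all 4 of these arrays Clec4f was -0.00026, Cd5l -0.026, Tie1 0.021, Hgf 0.0096, Col3a1 0.030 and Des 0.14. Without WT 1 and K289R 3 Des was 0.055. With 1 array left out in turn Clec4f ranged from -0.0043 to 0.16, Cd5l from -0.13 to 0.11, Marco from -0.14 to 0.10, Csf1r from -0.0058 to 0.19, C1qa from -0.064 to 0.086, C1qb from -0.090 to 0.11, C1qc from -0.093 to 0.078, Cd14 from -0.023 to 0.092, Kdr from -0.010 to 0.060, Lrat from -0.077 to 0.12, Hgf from -0.065 to 0.013, Ecm1 from -0.060 to 0.016, Col3a1 from -0.049 to 0.039 and Des from -0.35 to 0.28. Of the pairs, r without all 4 arrays was 0.78 for C1qa and C1qc, 0.62 for Col1a1 and Col3a1 and 0.71 for Stab1 and Stab2 (permutation adjusted p = 0.0809 each), and without K289R 4 it was 0.53 for C1qa and C1qc (permutation adjusted p = 0.12). Marco, Cd14 and Lum lay below the array median on most arrays, where signal near background limits what a difference can show.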
